A study of Arabidopsis thaliana with 12 samples.

Results

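*MYB28*, *BAT5* and *IPMI2* are 3 Arabidopsis genes of aliphatic glucosinolate synthesis, and each was read from 1 of the 22746 probe sets tested on the ATH1 GeneChip. Their identifiers are AT5G61420 for *MYB28*, AT4G12030 for *BAT5* and AT2G43100 for *IPMI2*. All 3 were paired with their probe sets through a supplementary table of genes lower with salt in the overexpressor, since the platform annotation used here did not name them. That table was chosen on the overexpressor arrays analyzed here, so the salt response of the 3 genes in the overexpressor is given below as a description. The table was not chosen on the salt response in the wild-type, although the 3 genes were taken up with earlier results of these data known. Probe sets lower with salt in the overexpressor were at the median lower in the wild-type too, so that response is not free of the choice.

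The transgenic plants were the *PtSnRK2.7* overexpressor line 20, a single T2 line of the Columbia background in which the poplar kinase cDNA *PtSnRK2.7* was driven by the CaMV 35S promoter, and they were set against the Columbia wild-type. Seedlings 7 days old were moved to plates of diluted MS medium for 2 days, either with 200 mM NaCl (salt) or without NaCl (mock), and total RNA of the seedlings was hybridized. The 4 groups, salt-treated overexpressor, mock-treated overexpressor, salt-treated wild-type and mock-treated wild-type, had 3 independent biological replicates each. No vector control was among the 12 arrays, and the arrays hold Arabidopsis probe sets, so the poplar transgene itself was not checked here.

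Glucosinolates are sulfur-rich defence compounds of the Brassicaceae that release toxic products when myrosinases reach them in broken tissue. The aliphatic ones start from methionine, whose side chain is first lengthened. BCAT4 takes the amino group off methionine in the cytosol, BAT5 carries the resulting oxo acid into the chloroplast, and there MAM synthases, an isopropylmalate isomerase and an isopropylmalate dehydrogenase add carbon in repeated rounds. BAT5 (also named BASS5) belongs to the bile acid:sodium symporter family. IPMI2 is a small subunit of the isomerase, and MYB28, a MYB transcription factor, is a principal activator of the aliphatic pathway genes together with MYB29 and MYB76. In RNA of seedlings, fewer cells of a type and less RNA per cell cannot be told apart.

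The array of salt-treated wild-type replicate 2 stood apart from the other replicates of its group in the size of its salt response. By limma array quality weights replicate 1 was low too (0.37, beside 0.23 for replicate 2 and 2.45 for replicate 3). The median SD of log2 signals over the probe sets was 0.36 in the salt-treated wild-type and between 0.20 and 0.21 in the other groups. For the 5463 probe sets lower with salt in the overexpressor, the median log2 change from the mean of the mock-treated wild-type was -1.08 on the array of replicate 1, -0.53 on that of replicate 2 and -0.93 on that of replicate 3. Results of the 3 genes that use the salt-treated wild-type are therefore given with and without replicate 2. For other genes this was done only in part. Among the tissue markers, only 1 of 5 green-tissue genes and 1 of 5 root genes had a probe set of its own. *RCA*, the activase of Rubisco, had signals of 9387 to 10897 in the salt-treated overexpressor and 18297 to 29241 in the mock-treated overexpressor. In the wild-type it had 6892 to 20119 with salt and 20082 to 22906 with mock. *EXP7*, a root hair expansin, had 181 to 293 with salt and 196 to 270 with mock in the overexpressor, and 286 to 434 with salt and 234 to 284 with mock in the wild-type. *RCA* was called lower with salt in both genotypes (adjusted p = 0.0112 in the overexpressor and 0.0423 in the wild-type, limma), and its part in the change of the 3 genes was not tested.

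*MYB28*, *BAT5* and *IPMI2* were lower with salt in both genotypes. Their mean signal with salt was 4.19% to 9.49% of the mock mean in the overexpressor, as a description. In the wild-type it was 15.3% to 19.6%, a mean raised by replicate 2. That array stood at 28.7% to 39.1% for the 3 genes, and replicates 1 and 3 stood at 5.87% to 11.4%. Signals are the MAS5 values, in linear units, brought to a common trimmed mean on every array. They compare groups for 1 gene but not 1 gene with another.

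*MYB28* had signals of 63.0, 102 and 74.5 on the 3 salt-treated overexpressor arrays, against 907, 754 and 859 on the mock-treated overexpressor arrays. In the wild-type it had 86.4, 311 and 99.8 with salt, against 1096, 1111 and 1036 with mock. Every salt array was below every mock array, and salt-treated wild-type replicate 2 was the highest of the 6 salt arrays. The mean was 79.7 ± 19.8 in the overexpressor with salt and 840.3 ± 78.3 with mock, and 166 ± 126 in the wild-type with salt and 1081 ± 40.1 with mock (SD, n = 3 each).

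*BAT5* had signals of 78.9, 63.4 and 55.2 on the salt-treated overexpressor arrays, against 744, 726 and 634 on the mock-treated overexpressor arrays. In the wild-type it had 77.7, 372 and 109 with salt, against 866, 961 and 1028 with mock. Here too the salt and mock arrays did not overlap in either genotype, and salt-treated wild-type replicate 1 lay within the range of the salt-treated overexpressor. The mean was 65.8 ± 12 in the overexpressor with salt and 701 ± 58.9 with mock, and 186 ± 162 in the wild-type with salt and 952 ± 81.3 with mock (SD, n = 3 each).

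*IPMI2* had signals of 37.3, 58.9 and 65.8 on the salt-treated overexpressor arrays, against 1428, 1345 and 1096 on the mock-treated overexpressor arrays. In the wild-type it had 96.5, 534 and 144 with salt, against 1763, 1842 and 1328 with mock. The 3 salt-treated overexpressor arrays were the lowest of the 12, below each salt-treated wild-type array. The mean was 54.0 ± 14.9 in the overexpressor with salt and 1290 ± 173 with mock, and 258 ± 240 in the wild-type with salt and 1644 ± 277 with mock (SD, n = 3 each).

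**Figure D1:**
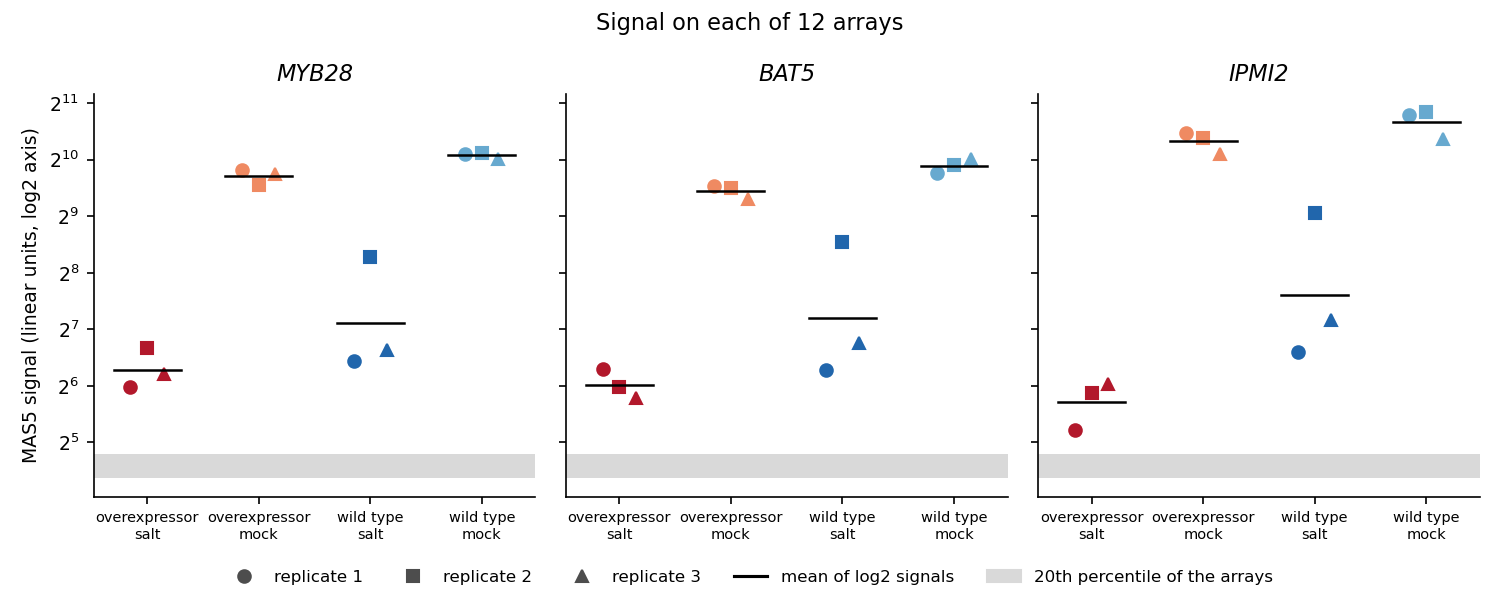
MAS5 signal (linear units on a log2 axis) of *MYB28*, *BAT5* and *IPMI2* on each of the 12 arrays, by group; symbols mark the replicate, the black line is the mean of the 3 log2 signals, and the grey band spans the 20th percentiles of the 12 arrays. All salt arrays lie below all mock arrays of the same genotype, and the blue square of salt-treated wild-type replicate 2 (311 for *MYB28*, 372 for *BAT5*, 534 for *IPMI2*) lies above the other salt arrays.

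With salt the 3 genes stayed above the dimmest probe sets. The 20th percentile of the arrays lay between 20.6 and 27.8, below the lowest salt signal of each gene. In percentiles of its own array, *MYB28* stood between 34.1 and 41.0 in the salt-treated overexpressor and between 79.9 and 83.3 in the mock-treated overexpressor. In the wild-type *MYB28* stood between 38.8 and 60.8 with salt and between 85.4 and 86.3 with mock. *BAT5* stood between 32.2 and 37.6 in the salt-treated overexpressor and 76.3 and 79.9 in the mock-treated overexpressor, and between 37.1 and 65.1 in the wild-type with salt and 82.5 and 85.3 with mock. The salt-treated wild-type thus had the widest range for each gene. *IPMI2* stood between 26.0 and 34.8 in the salt-treated overexpressor, against 86.0 to 89.5 in the mock-treated overexpressor, and between 40.5 and 73.1 in the salt-treated wild-type, against 88.5 to 91.9 in the mock-treated wild-type.

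The order of the group means was the same for the 3 genes: lowest in the salt-treated overexpressor, then the salt-treated wild-type, the mock-treated overexpressor and the mock-treated wild-type. The smallest p that an exact two-sided permutation test of 3 against 3 arrays can give is 0.1, so no pair of neighbours in this order could pass 0.05. The salt-treated wild-type and the mock-treated overexpressor did not overlap for any of the 3 genes (exact permutation p = 0.1 each). The 2 salt groups overlapped for *MYB28* (exact permutation p = 0.3) and *BAT5* (0.2), and did not for *IPMI2* (0.1). The 2 mock groups did not overlap for *MYB28* and *BAT5* (exact permutation p = 0.1 each) and overlapped for *IPMI2* (0.3). The share of all probe sets whose groups did not overlap was not counted, so overlap is a description here and in the other comparisons.

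The salt response in the wild-type asks what NaCl changed without the transgene. *MYB28*, the activator, fell, with a log2 change of -2.96 (SE 0.37, 95% interval -3.76 to -2.16, adjusted p = 6.42e-05, limma). *BAT5*, the chloroplast carrier, fell, with a log2 change of -2.70 (SE 0.42, 95% interval -3.60 to -1.79, adjusted p = 0.000287, limma). *IPMI2*, the isomerase subunit, fell, with a log2 change of -3.06 (SE 0.47, 95% interval -4.08 to -2.05, adjusted p = 0.000269, limma). So 3 of 3 genes were called lower, where 21.9% of all probe sets were called lower and 17.2% higher in the wild-type. Ordered from the most negative of the 22746 log2 changes, *IPMI2* was number 143, *MYB28* 174 and *BAT5* 264, and the median over all probe sets was -0.07. This count and these ranks are a description too, since the 3 genes were measured only through a table chosen on the overexpressor salt response. The 5463 probe sets lower with salt in the overexpressor were also lower at the median on each salt-treated wild-type array (-1.08, -0.53 and -0.93).

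The 3 wild-type arrays did not respond to the same degree. Set against the mean of the mock-treated wild-type, *MYB28* was at -3.64, -1.80 and -3.44 on the log2 scale in salt-treated replicates 1, 2 and 3. *BAT5* was at -3.61, -1.35 and -3.13, and *IPMI2* at -4.08, -1.61 and -3.50. The log2 change in replicate 2 was 50.8% of the mean change of the other 2 arrays for *MYB28*, 40.1% for *BAT5* and 42.5% for *IPMI2*, beside 52.8% for the 5463 probe sets named above. The SD of log2 signals in the salt-treated wild-type was 1.01 for *MYB28*, 1.19 for *BAT5* and 1.29 for *IPMI2*. Without replicate 2 the wild-type salt response was -3.54 for *MYB28*, -3.37 for *BAT5* and -3.79 for *IPMI2* (adjusted p = 1.75e-08, 2.85e-08 and 1.03e-07, limma). By the methods' t-test, which takes the spread from the 2 groups compared alone, none of the 3 passed after adjustment (adjusted p = 0.162, 0.187 and 0.178), and 2 of 3 had an unadjusted p under 0.05, as 28.0% of all probe sets did. That test called 0 probe sets lower and 4 higher of all 22746 in the wild-type, so nothing particular to the 3 genes is read from it.

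**Figure D2:**
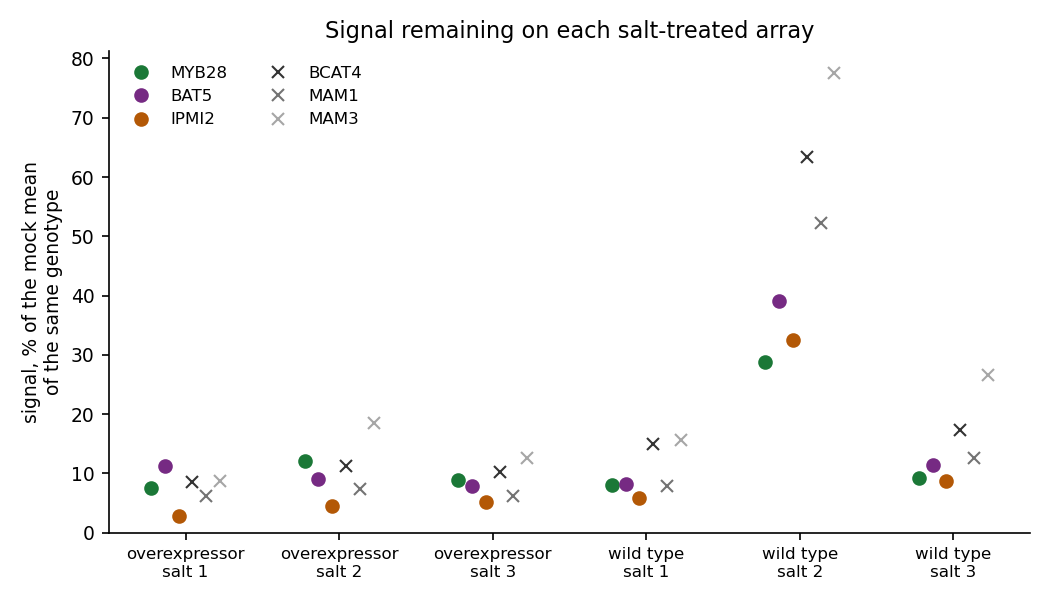
Signal on each of the 6 salt-treated arrays as a percentage of the mean mock signal of the same genotype, for *MYB28*, *BAT5* and *IPMI2* (circles) and for *BCAT4*, *MAM1* and *MAM3*, other chain elongation genes (crosses). On salt-treated wild-type replicate 2 the 3 circles lie at 28.7% to 39.1% and the crosses at 52.2% to 77.6%, above the other 5 arrays for each gene.

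The salt response in the overexpressor chose the genes, so its size is not set against that in the wild-type. *MYB28* differed by -3.42 (SE 0.37, 95% interval -4.22 to -2.63) on the log2 scale between salt and mock. *BAT5* differed by -3.43 (SE 0.42, 95% interval -4.33 to -2.52). *IPMI2* differed by -4.61 (SE 0.47, 95% interval -5.62 to -3.59) and was number 33 of the 22746 from the most negative, while *BAT5* was number 148 and *MYB28* 152. In this comparison 24.0% of all probe sets were called lower and 17.1% higher, with a median over all of -0.09, and nothing is read from the 3 genes' place in it.

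The interaction asks whether salt acted to a different degree in the 2 genotypes. For *MYB28* the response in the overexpressor minus that in the wild-type was -0.46 on the log2 scale (SE 0.52, 95% interval -1.59 to 0.66, adjusted p = 0.785, limma). For *BAT5* it was -0.73 (SE 0.59, 95% interval -2.01 to 0.55, adjusted p = 0.681, limma). For *IPMI2* it was -1.55 (SE 0.66, 95% interval -2.98 to -0.11, adjusted p = 0.375, limma). None of the 3 was called by limma, where 0.0528% of all probe sets were called lower and 0.246% higher. An unadjusted p under 0.05 was found for 1 of 3 genes, *IPMI2*, and for 12.1% of all probe sets. Without salt-treated wild-type replicate 2, the interaction was 0.12 for *MYB28*, -0.06 for *BAT5* and -0.82 for *IPMI2* (adjusted p = 0.859, 0.941 and 0.208, limma). Leaving out each of the 12 arrays in turn gave -0.81 to 0.12 for *MYB28*, -1.19 to -0.06 for *BAT5* and -2.05 to -0.82 for *IPMI2*, with none called. The overexpressor arrays that chose the genes enter this comparison and both comparisons of the genotypes.

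Under mock treatment the overexpressor was set against the wild-type to ask what the transgene changed without salt. *MYB28* differed by -0.37 on the log2 scale (SE 0.37, 95% interval -1.16 to 0.43, adjusted p = 0.856, limma), and each overexpressor array was below each wild-type array. *BAT5* differed by -0.44 (SE 0.42, 95% interval -1.34 to 0.46, adjusted p = 0.846, limma), again with no overlap. *IPMI2* differed by -0.34 (SE 0.47, 95% interval -1.36 to 0.67, adjusted p = 0.919, limma), and its groups overlapped. None of the 3 was called by limma, where 0.431% of all probe sets were called lower and 0.132% higher. None had an unadjusted p under 0.05 by limma, beside 9.30% of all probe sets. By the methods' t-test 2 of 3 had an unadjusted p under 0.05, as 9.42% of all probe sets did, and none passed after adjustment.

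Under salt, *MYB28* differed between the overexpressor and the wild-type by -0.83 on the log2 scale (SE 0.37, 95% interval -1.63 to -0.03, adjusted p = 0.261, limma). *BAT5* differed by -1.17 (SE 0.42, 95% interval -2.07 to -0.27, adjusted p = 0.161, limma). *IPMI2* differed by -1.89 (SE 0.47, 95% interval -2.91 to -0.88, adjusted p = 0.0591, limma), with each overexpressor array below each wild-type array. None of the 3 was called by limma, where 0.783% of all probe sets were called lower and 1.23% higher. All 3 had an unadjusted p under 0.05, as did 17.6% of all probe sets (9.01% in the lower direction). By the methods' t-test none had an unadjusted p under 0.05, beside 8.26% of all probe sets.

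These differences under salt depended on 2 of the wild-type arrays. Without salt-treated wild-type replicate 2, *IPMI2* differed by -1.16 (SE 0.25, adjusted p = 0.0140, limma), *BAT5* by -0.50 (adjusted p = 0.121) and *MYB28* by -0.25 (adjusted p = 0.458). So 1 of 3 was called lower there, where 3.48% of all probe sets were. Without salt-treated wild-type replicate 1, *BAT5* differed by -1.63 (adjusted p = 0.0305, limma) and *IPMI2* by -2.40 (adjusted p = 0.0122). In that fit 501 of all 22746 probe sets were called lower, beside 178 with all arrays.

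**Figure D3:**
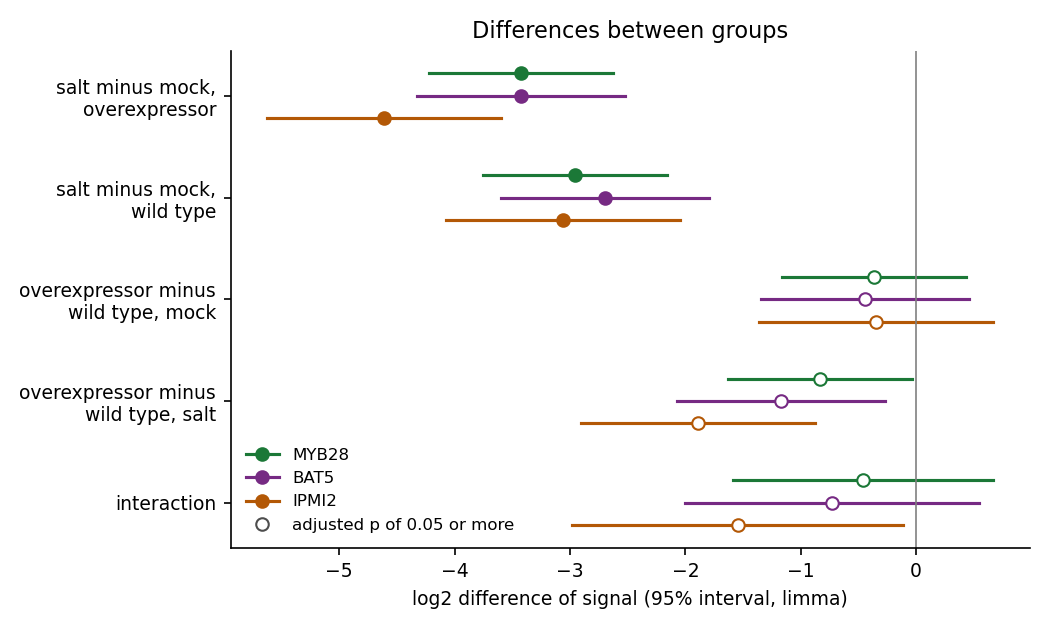
Log2 differences of signal with 95% intervals from limma for *MYB28*, *BAT5* and *IPMI2* in the 5 comparisons, with the salt response in the overexpressor at the top; filled points have an adjusted p under 0.05. Both salt responses lie between -4.61 and -2.70, and the genotype differences and the interaction are drawn as open points.

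Of the 33 other genes listed for aliphatic glucosinolate synthesis, 15 had a probe set paired with them alone. With salt, 7 were called lower and 5 higher in the overexpressor, with a median log2 difference of -0.35, and 6 were called lower and 5 higher in the wild-type, with a median of -0.03. Of all probe sets, 24.0% were called lower and 17.1% higher in the overexpressor, and 21.9% lower and 17.2% higher in the wild-type. Only 10 of the 15 were paired through the annotation, and among these 4 were called lower and 3 higher in the overexpressor. The others were paired through tables chosen on these arrays, so their counts are not independent of the salt responses.

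Of the 3 other regulators measured, 2 were called and both rose. Of all probe sets, 17.1% were called higher in the overexpressor and 17.2% in the wild-type. Of the 2 regulators paired through the annotation, 1 was called. *MYC2*, a basic helix-loop-helix factor of jasmonate signaling that works with the MYB activators, rose by 2.08 in the overexpressor and 2.43 in the wild-type on the log2 scale (adjusted p = 8.91e-05 and 3.81e-05, limma). *MYC2* was paired only through tables of genes higher with salt in each genotype, chosen on these arrays, so both rises are a description. Its relative *MYC3* rose by 0.84 in the overexpressor and 1.29 in the wild-type (adjusted p = 0.0281 and 0.00263). *MYC4* differed by -0.31 in the overexpressor and -0.27 in the wild-type and was not called in either genotype. *MYB29* and *MYB76* had no probe set paired with them alone and were not analyzed here.

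Of 7 other listed chain elongation genes, 3 were measured, and these were called lower with salt. *MAM1* and *MAM3* were paired only through the table chosen on the overexpressor salt response, so that response is a description for them. *BCAT4*, the methionine aminotransferase that precedes BAT5, had signals of 389, 508 and 460 in the salt-treated overexpressor against 5397, 4500 and 3630 in the mock-treated overexpressor. In the wild-type *BCAT4* had 741, 3119 and 853 with salt against 4889, 5119 and 4769 with mock. It fell, with log2 changes of -3.31 in the overexpressor and -1.97 in the wild-type (adjusted p = 4.04e-05 and 0.00178, limma), and it was paired through the annotation. *MAM1*, a methylthioalkylmalate synthase, had a log2 difference of -3.91 in the overexpressor and fell in the wild-type, with a log2 change of -2.53 (adjusted p = 0.00116, limma). *MAM3*, the synthase of the longer chains, had a log2 difference of -2.97 in the overexpressor and fell in the wild-type, with a log2 change of -1.65 (adjusted p = 0.00883, limma). Without salt-treated wild-type replicate 2 the wild-type changes were -2.63 for *BCAT4*, -3.32 for *MAM1* and -2.30 for *MAM3*. Between the genotypes under salt, *BCAT4* differed by -1.48 (adjusted p = 0.0755, limma), *MAM1* by -1.56 (0.111) and *MAM3* by -1.71 (0.0621), with no overlap between overexpressor and wild-type arrays. Without that replicate these were -0.82, -0.77 and -1.07, and all 3 were called lower (adjusted p = 0.00836, 0.0202 and 0.0247, limma). In that fit 3.48% of all probe sets were called lower. The salt-treated overexpressor arrays that chose *MAM1* and *MAM3* enter this comparison, so it is a description for them too.

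Genes after chain elongation were mixed. In core synthesis, *GSTU20*, a glutathione transferase, fell, with log2 changes of -2.18 in the overexpressor and -1.60 in the wild-type (adjusted p = 0.000108 and 0.00113, limma). *UGT74C1*, a glucosyltransferase of the aliphatic branch, fell, with log2 changes of -1.72 in the overexpressor and -1.95 in the wild-type (adjusted p = 0.000652 and 0.000321). Without salt-treated wild-type replicate 2 the wild-type changes were -2.07 for *GSTU20* and -2.44 for *UGT74C1*. *UGT74B1*, the glucosyltransferase of wider substrate range, fell by 0.35 in the overexpressor (adjusted p = 0.0284) and differed by -0.03 in the wild-type (adjusted p = 0.875). With all arrays it was also the 1 pathway gene called under salt between the genotypes (-0.68, lower in the overexpressor, adjusted p = 0.0175, limma). In that comparison 0.783% of all probe sets were called lower.

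Of the side-chain genes, *FMOGS-OX3*, an S-oxygenase, fell, with log2 changes of -1.31 in the overexpressor and -1.80 in the wild-type (adjusted p = 0.000108 and 1.54e-05, limma). With all arrays it was the 1 pathway gene called between the mock-treated groups (-1.04, lower in the overexpressor, adjusted p = 0.0258), where 0.431% of all probe sets were called lower. It was paired only through tables chosen on these arrays for that same comparison and for the salt response in the wild-type, so the call is not independent of them. Without salt-treated wild-type replicate 2, *UGT74C1* was called lower there too (-0.68, adjusted p = 0.0168, limma), as were 223 of all 22746 probe sets. *FMOGS-OX2*, another S-oxygenase, rose by 1.95 in the overexpressor and 0.94 in the wild-type (adjusted p = 1.08e-06 and 0.000292, limma). It was paired only through the table of genes higher with salt in the overexpressor, so its response there is a description. Its interaction of 1.00 was not called with all arrays (adjusted p = 0.0571, limma) and was 0.99 without salt-treated wild-type replicate 2 (adjusted p = 0.0300). *GS-OH*, which hydroxylates an alkenyl side chain, rose by 1.48 in the overexpressor and 1.28 in the wild-type (adjusted p = 1.34e-05 and 5.44e-05). *AOP3* had mean signals of 13.7 to 21.3 in the 4 groups, around the 20th percentile of the arrays, and was not called. Of the transporters that load glucosinolates into the phloem, *GTR1* rose by 1.76 in the overexpressor and 1.29 in the wild-type (adjusted p = 0.000224 and 0.00219), while *GTR2* differed by 0.28 in the overexpressor and 0.13 in the wild-type and was not called. Without salt-treated wild-type replicate 2 the wild-type rise of *GTR1* was 1.72 (adjusted p = 1.62e-07, limma).

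**Figure D4:**
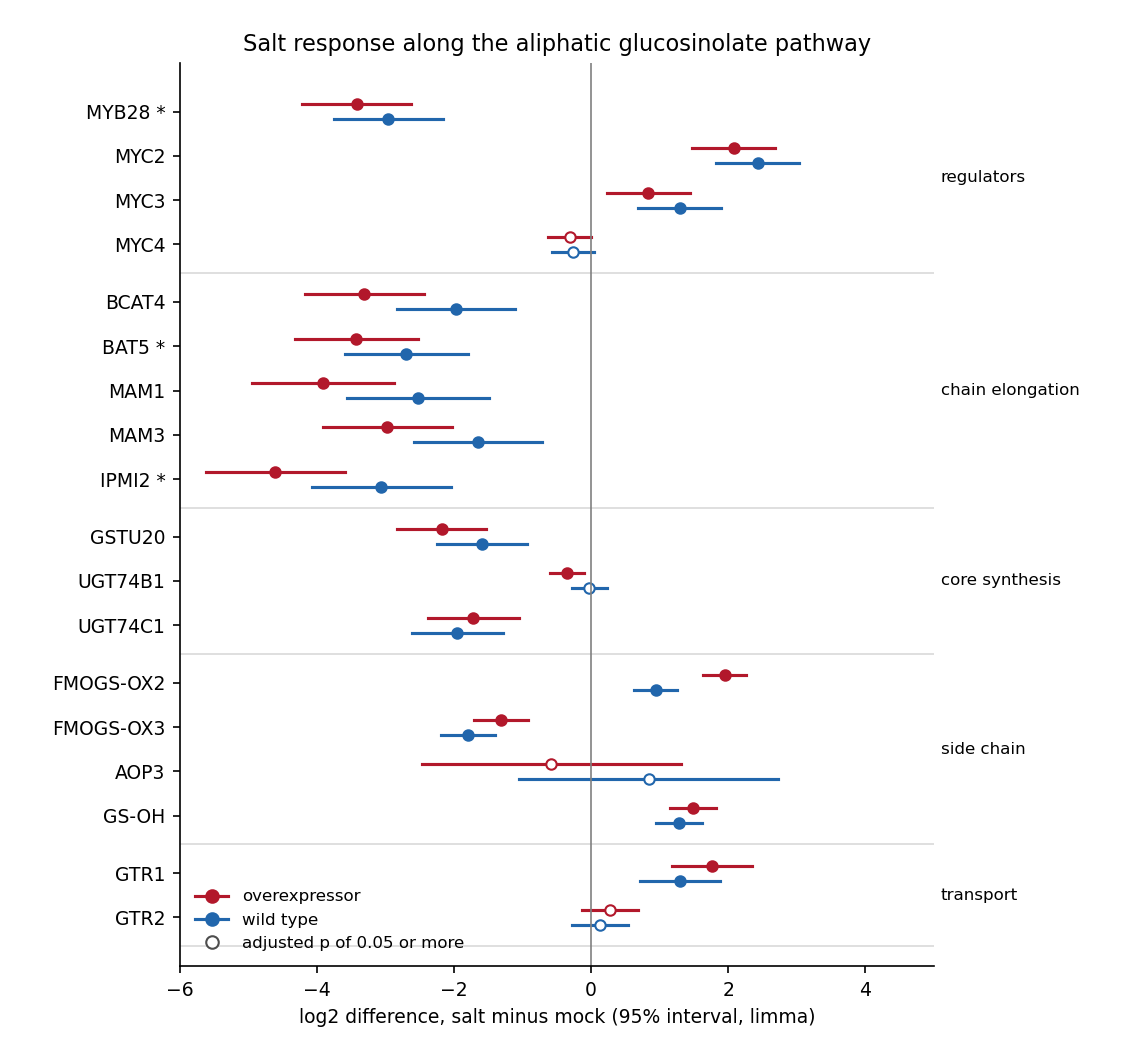
Log2 difference between salt and mock with its 95% interval (limma) for the 15 other measured pathway genes and for *MYB28*, *BAT5* and *IPMI2* (marked with an asterisk), grouped by step, with the overexpressor in red above the wild-type in blue; filled points have an adjusted p under 0.05. All 5 chain elongation genes lie left of 0 in both genotypes, and *MYC2*, *MYC3*, *FMOGS-OX2*, *GS-OH* and *GTR1* lie right of 0.

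The family of *BAT5* and the neighbouring pathways gave a further frame. Of 5 other genes of the bile acid:sodium symporter family, 4 were measured, and 3 were called lower with salt in the overexpressor, where 24.0% of all probe sets were, and 2 in the wild-type, where 21.9% were. *BASS4* fell most, with log2 changes of -2.10 in the overexpressor and -2.25 in the wild-type (adjusted p = 1.92e-05 and 1.66e-05, limma), and *BASS1* differed by 0.28 in the overexpressor and 0.32 in the wild-type and was not called. For *IPMI2*, none of the 5 listed genes of leucine synthesis that are related to chain elongation had a probe set of its own. Of 16 listed genes of indolic glucosinolates, which start from tryptophan, 2 were measured and both rose in both genotypes. *CYP79B2*, which makes indole-3-acetaldoxime, rose by 1.83 in the overexpressor and 2.17 in the wild-type (adjusted p = 0.000144 and 5.48e-05, limma). Of 12 listed genes of glucosinolate breakdown, 4 were measured and all 4 rose in both genotypes. The beta-glucosidase gene *BGLU28* rose by 5.55 in the overexpressor and 3.79 in the wild-type (adjusted p = 4.59e-08 and 9.62e-07, limma). Its mean mock signal was 104 in the overexpressor and 409 in the wild-type (log2 difference -1.89, adjusted p = 0.00521, limma). In that comparison 0.431% of all probe sets were called lower. The mean salt signals of *BGLU28* were 4878 and 5306 (log2 difference -0.13, adjusted p = 0.851, limma). Of 4 listed genes that supply sulfate donors, *APS3* alone was measured and differed by 0.13 in the overexpressor and 0.06 in the wild-type. Both indolic genes measured, and *BGLU30*, *ESP* and *NSP5* of the breakdown genes, were paired only through tables of genes higher with salt on these arrays. Their rises and the counts above are therefore a description. Of all probe sets, 17.1% were called higher in the overexpressor and 17.2% in the wild-type.

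Likeness of profile was measured as the root mean square difference of log2 signals over the 12 arrays, each probe set centred on its own mean, among 6481 probe sets paired with 1 gene and above the median signal. The profile closest to *MYB28* was that of AT1G06830, at 0.23, followed by *AGP14*, an arabinogalactan protein gene, at 0.27 and *BAT5* at 0.29. AT4G32340 and AT4G15830 came next, at 0.30 each. Closest to *BAT5* were *MAM1* at 0.26, *MYB28* at 0.29 and *BCAT4* at 0.33, then AT1G06830 and AT3G02640 at 0.37 each. The nearest profiles were therefore mostly those of pathway genes for *BAT5*, and only in part for *MYB28*.

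*IPMI2* had a more distant set of neighbours. AT1G12080 was closest, at 0.35, followed by *MAM1* at 0.40, AT1G52060 at 0.44, the pectin methylesterase gene *PME5* at 0.48 and the germin-like gene *GER3* at 0.53. *MYB28* was number 7 in this order and *BAT5* number 9. Many of the 6481 probe sets share the difference between salt and mock arrays, so the ranks are a description only.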

How the data were processed

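RNA of 12 seedling samples was hybridized to Affymetrix ATH1 GeneChips, 3 per group, and groups were taken from the sample labels. The intensity values deposited by the authors are MAS5 signals on a linear scale, with 1 value for each probe set on each array, scaled to a common trimmed mean. The scans and the detection calls were not used here. No genome build is given in the sources used here, so no coordinates are printed, and no sequences of the genes were analyzed here. Precision is limited by the number of arrays. Tables that hold the study's own fold changes and p-values were used only to pair probe sets with genes.

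Of 22810 probe sets, 64 Affymetrix controls were left out. limma 3.58.1 (R 4.3.3) was fitted to log2 signals of all 12 arrays, with a mean for each of the 4 groups and an intensity trend in the moderated variances. Adjusted p-values are Benjamini-Hochberg values over 22746 probe sets, tests are two-sided, and a call is an adjusted p under 0.05. Medians and counts of a list describe its measured genes, with no test of the list. The fit was tested on simulated data with known changes. Gene names were given to a probe set where the platform annotation (13416 probe sets) or, failing that, the supplementary tables (700) paired it with that gene alone. Another 632 had several genes, 20 had conflicting pairings and 7978 had none. Where a gene had several probe sets, the brightest on average was kept.

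The genes named are the 3 members, measured genes of the pathway lists, up to 4 genes of each other list with the smallest adjusted p, and the 5 profiles most like each member. The members and the lists were chosen with earlier results of these data known. The fit was repeated with median centring, with quantile normalization, with signals raised to the 20th percentile where they were lower, with a filter at the 40th percentile, on the compared groups alone, with array quality weights, without the trend, with the replicate number as a block and without each array in turn, and the methods' t-test with unequal variances was run. Quality weights per group were added after seeing the data.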

Additional observations from a re-analysis of the deposited data

Results flagged for a closer look

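*ESP*, the epithiospecifier gene that steers glucosinolate breakdown away from isothiocyanates, had a salt response that differed between the genotypes, and with all arrays it was the 1 measured gene of the lists called in this comparison. Its mean signal was 1417 ± 48.6 in the overexpressor with salt and 205 ± 31.7 with mock, and 650 ± 119 in the wild-type with salt and 257 ± 45.9 with mock (SD, n = 3 each). It rose by 2.80 in the overexpressor and 1.34 in the wild-type on the log2 scale, and the difference between these responses was 1.46 (SE 0.24, adjusted p = 0.0342, limma). Its probe set was paired through the table of genes higher with salt in the overexpressor, which was chosen on these arrays. Without salt-treated wild-type replicate 2 the difference was 1.30 (adjusted p = 0.0107, limma), and *BGLU28* (1.83, adjusted p = 0.0209) and *FMOGS-OX2* (0.99, adjusted p = 0.0300) were called too. With all arrays these were 1.76 for *BGLU28* (adjusted p = 0.0533) and 1.00 for *FMOGS-OX2* (adjusted p = 0.0571). Without that replicate 466 of all 22746 probe sets were called higher and 294 lower, beside 56 and 12 with all arrays. *FMOGS-OX2* was paired through the same table as *ESP*. For *BGLU28* the genotypes differed by -1.89 under mock treatment and by -0.13 under salt.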

How the results depend on the processing

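Over the 3 genes and 5 comparisons, 313 values from alternatives kept their direction and their side of the threshold, 7 passed it that had not, 3 no longer passed it and 1 changed sign. The 3 that no longer passed were the wild-type salt responses by the methods' t-test, -2.96 for *MYB28* (adjusted p = 0.162), -2.70 for *BAT5* (0.187) and -3.06 for *IPMI2* (0.178), and under it 0 other pathway genes were called lower and 0 higher. The cause was not tested. Under salt, the overexpressor minus the wild-type passed for *IPMI2* with median centring (-1.82, adjusted p = 0.0493), with the filter at the 40th percentile (-1.89, 0.0444) and with array quality weights (-1.56, 0.00464). With array quality weights it also passed for *BAT5* (-0.79, adjusted p = 0.0433). In this comparison 152 of 22746 probe sets were called lower with median centring, 277 of 13647 with the filter and 1403 of 22746 with array quality weights. Leaving out each array gave -2.40 to -1.16 for *IPMI2* (adjusted p = 0.0122 to 0.202) and -1.63 to -0.50 for *BAT5* (0.0305 to 0.353). The interaction of *MYB28* ranged from -0.81 to 0.12 and was positive without salt-treated wild-type replicate 2 alone (0.12).

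The pathway counts between genotypes were small and moved with the settings. The count called lower under mock treatment, 1 in the report, was 0 without the trend, with the replicate block and by the methods' t-test, 3 with array quality weights, 2 with weights per group and 2 with only the groups compared, and 0 to 2 on leaving out each array. Over all probe sets that count was 98 in the report. It was 35 without the trend, 75 with the block and 0 by the t-test. With array quality weights it was 337, with weights per group 235 and with only the groups compared 219. Leaving out each array gave 33 to 223. The count called lower under salt, also 1, was 2 with the filter, 4 with array quality weights, 0 without the trend, with weights per group, with only the groups compared and by the methods' t-test, and 0 to 4 on leaving out each array. Over all probe sets that count was 178 in the report, 277 with the filter and 1403 with array quality weights. It was 30 without the trend, 25 with weights per group, 1 with only the groups compared and 0 by the t-test. Leaving out each array gave 8 to 791. The count called higher in the interaction, 0 in the report, was 1 with median centring, with the filter and with array quality weights, and 0 to 1 on leaving out each array. Over all probe sets that count was 56 in the report. It was 145 with median centring, 109 with the filter and 710 with array quality weights, and 4 to 466 on leaving out each array. Nothing particular to the pathway is read from these counts.

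Replicate numbers were also tried as a block. Deviations from the group means correlated between -0.21 and 0.26 over the 18 pairs of arrays with the same number, 4 of them over 0.1. Over the 36 pairs with different numbers they correlated between -0.28 and 0.30, 11 of them over 0.1. Whether arrays of the same number share a batch cannot be told from these values. The replicate block changed no call of the 3 genes, and the difference of *IPMI2* under salt was -1.89 with it (adjusted p = 0.0587). The methods' t-test and the fit of only the groups compared were not run for the interaction.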
